A study of Mus musculus with 12 samples.

Results

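Rpph1, Rmrp, Rn7s6 and Rn7sk are short non-coding RNA genes that encode the RNA of RNase P, the RNA of RNase MRP, a 7SL RNA and the 7SK RNA. They were selected on their measured counts in these libraries, as genes that were lower at 3 and 10 μg/kg of the dioxin TCDD, that is, 2,3,7,8-tetrachlorodibenzo-p-dioxin, and higher at 30 μg/kg, so their dose pattern is described here with no test. These were 4 of the 46078 genes listed in the files, and all 4 were among the 15823 genes that passed the filter on low counts. Rn7sk did not follow the pattern at the highest dose. Its 3 libraries at 30 μg/kg were below all vehicle libraries, so with libraries scaled on all genes the pattern was that of Rpph1, Rmrp and Rn7s6.

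The RNA came from epithelium scraped off the proximal ileum in male C57BL/6 mice. Mice received sesame oil alone by oral gavage (vehicle), or 3, 10 or 30 μg/kg TCDD in the oil, every 4 days for 28 days, from 28 to 56 days of age. Each of the 4 groups had 3 libraries, which the submitters call biological replicates. Libraries held 11695887 to 22180274 counts in genes. The 6 epithelial marker genes examined (Epcam, Vil1, Cdh1, Krt8, Krt20 and Lgals4) summed to between 9327 and 10316 CPM (counts scaled to a common library size) in vehicle and between 10797 and 11845 CPM in the treated libraries, all of which were above vehicle. The part of this difference in the results was not tested. In such scrapings, fewer cells of a type and less RNA per cell cannot be told apart.

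RNase P is a ribozyme that removes the leader from the 5′ end of precursor tRNAs. RNase MRP, which shares most of its proteins, cuts precursor ribosomal RNA. The 7SL RNA is the scaffold of the signal recognition particle (SRP), which brings ribosomes that make secreted and membrane proteins to the endoplasmic reticulum, a heavy traffic in intestinal epithelium. The 7SK RNA holds the elongation kinase P-TEFb (Cdk9 with a cyclin T) in an inactive complex with Hexim and Larp7 proteins. RNA polymerase III transcribes these RNAs, which carry no poly(A) tail. TCDD is a ligand of the aryl hydrocarbon receptor, a transcription factor that binds a short DNA element whose core reads GCGTG.

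The sequences decide which reads could be given to each gene, so they are shown first, as GENCODE M21 transcripts on GRCm38. Rpph1 (ENSMUSG00000092837) was on chromosome 14 from 50807449 to 50807767 on the minus strand. It was annotated as a ribozyme of 319 nt with a GC content of 67.1%. Its bases 36 to 268 are also part of an exon of Ccnb1ip1 on the same strand, and capitals mark them in its first 300 bases. Ccnb1ip1 had 1 count over all 12 libraries, so nearly no reads in this stretch had been given to it.

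Rpph1: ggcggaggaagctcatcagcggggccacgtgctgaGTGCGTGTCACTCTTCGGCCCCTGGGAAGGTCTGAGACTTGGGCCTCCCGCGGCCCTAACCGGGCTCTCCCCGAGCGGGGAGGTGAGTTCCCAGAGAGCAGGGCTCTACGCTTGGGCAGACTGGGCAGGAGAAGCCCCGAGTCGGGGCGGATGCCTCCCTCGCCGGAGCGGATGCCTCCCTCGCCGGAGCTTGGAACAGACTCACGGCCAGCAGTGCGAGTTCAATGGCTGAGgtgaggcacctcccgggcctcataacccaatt

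Rmrp (ENSMUSG00000088088) was on chromosome 4 from 43492788 to 43493058 on the minus strand, as a ribozyme of 271 nt with a GC content of 64.2%. Capitals in its whole sequence mark bases 36 to 159, which lie in an exon of a non-coding processed transcript of Ccdc107 on the opposite strand. A second Rmrp identifier in M21 covers the same bases and was not listed in the files.

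Rmrp: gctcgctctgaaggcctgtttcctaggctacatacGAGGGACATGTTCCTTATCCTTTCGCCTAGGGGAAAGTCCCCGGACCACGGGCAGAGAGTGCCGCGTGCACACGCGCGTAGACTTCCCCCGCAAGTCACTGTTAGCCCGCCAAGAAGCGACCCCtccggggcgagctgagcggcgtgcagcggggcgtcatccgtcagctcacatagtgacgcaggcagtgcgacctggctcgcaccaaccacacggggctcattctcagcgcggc

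Rn7s6 (ENSMUSG00000092746) was on chromosome 6 from 69516339 to 69516629 on the plus strand, 291 nt with a GC content of 57.4%.

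Rn7sk (ENSMUSG00000065037) was on chromosome 9 from 78175303 to 78175633 on the minus strand, 331 nt with a GC content of 58%. Capitals in its first 300 bases mark the 241 bases that lie in a 50-nt window found in another annotated transcript. The remaining 90 of its 331 bases were in no such window.

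Rn7sk: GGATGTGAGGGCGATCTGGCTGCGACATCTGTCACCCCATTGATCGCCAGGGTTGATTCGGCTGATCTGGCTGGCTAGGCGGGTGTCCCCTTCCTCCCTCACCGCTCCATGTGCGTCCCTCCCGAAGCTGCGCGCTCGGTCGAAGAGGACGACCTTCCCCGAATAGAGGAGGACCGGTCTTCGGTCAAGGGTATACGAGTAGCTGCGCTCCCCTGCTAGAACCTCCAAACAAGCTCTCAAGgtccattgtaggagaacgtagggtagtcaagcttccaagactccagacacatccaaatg

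Of the 50-nt windows in each RNA, 184 of 270 in Rpph1, 75 of 222 in Rmrp, 124 of 242 in Rn7s6 and 192 of 282 in Rn7sk occurred in a transcript of another gene. For Rpph1 and Rmrp the other gene overlapped the same bases of the genome. For Rn7s6 and Rn7sk the windows lay elsewhere too, in 8 and 7 other genes, mostly unnamed 7SL-like and 7SK-like copies. Reads that matched more than 1 place, or more than 1 gene, had been left out of gene counts, so the counts of Rn7s6 and Rn7sk rest on part of each RNA and are uncertain as levels. The level of Rpph1 is uncertain too, since 233 of its 319 bases lie in the Ccnb1ip1 exon of M21, and whether the authors' annotation held that exon is not given in the sources used here. The level of Rmrp is uncertain if reads were counted without regard to strand, since 124 of its 271 bases lie in the Ccdc107 exon.

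Rpph1 was the most abundant of the 4 RNAs. The 3 vehicle libraries held 4130, 3753 and 3875 CPM of Rpph1 after TMM scaling (scaling between libraries by a trimmed mean of log ratios). At 3 μg/kg TCDD the values were 2009, 1807 and 1391 CPM, and at 10 μg/kg they were 1913, 1855 and 1976 CPM. At 30 μg/kg they were 9492, 11742 and 10069 CPM. All 6 libraries at the lower doses were below every vehicle library, and all 3 at 30 μg/kg were above every other library. The groups at 3 and 10 μg/kg overlapped. Against vehicle, the log2 change of Rpph1 was -1.18 (SE 0.14) at 3 μg/kg, -1.03 (SE 0.14) at 10 μg/kg and 1.41 (SE 0.14) at 30 μg/kg, a 2.66-fold difference at the highest dose. There, scaling on short coding genes (described after the 4 RNAs) gave 0.41 (SE 0.28), or 1.33-fold. Rpph1 took between 0.148% and 0.409% of gene counts in the 9 libraries below 30 μg/kg, and between 0.935% and 1.13% at 30 μg/kg.

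Rmrp had the same order of groups. It held 543.8, 447.3 and 467.7 CPM in vehicle, 213.6, 235.8 and 184.6 CPM at 3 μg/kg, 231.7, 234.4 and 279.5 CPM at 10 μg/kg and 971.9, 967.8 and 1046 CPM at 30 μg/kg. Again vehicle stood apart, above both lower doses and below the highest, and the 3 and 10 μg/kg libraries overlapped. The log2 change of Rmrp was -1.20 (SE 0.12), -0.97 (SE 0.12) and 1.03 (SE 0.12) at 3, 10 and 30 μg/kg. The last was 0.02 (SE 0.22) with scaling on short coding genes.

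Rn7s6 was the least abundant. It held 14.7, 13.5 and 17.9 CPM in vehicle, from 261 to 341 counts. Values were 6.04, 6.31 and 4.70 CPM at 3 μg/kg, 4.61, 5.73 and 4.72 CPM at 10 μg/kg and 23.6, 31.6 and 24.5 CPM at 30 μg/kg. Vehicle was above both lower doses and below the highest here as well, and the 3 and 10 μg/kg libraries overlapped. The log2 change was -1.44 (SE 0.17), -1.62 (SE 0.17) and 0.79 (SE 0.16) at 3, 10 and 30 μg/kg. The last was -0.22 (SE 0.24) with scaling on short coding genes, less than its SE from 0. Of the 4 RNAs, Rn7s6 differed most from vehicle at 10 μg/kg, 3.06-fold.

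Rn7sk held 114.8, 109.1 and 96.2 CPM in vehicle. It held 42.1, 38.7 and 50.7 CPM at 3 μg/kg, 64.1, 74.6 and 67.1 CPM at 10 μg/kg and 57.2, 69.3 and 87.9 CPM at 30 μg/kg. Every treated library was below every vehicle library. The 3 μg/kg libraries were the lowest with no overlap with the other groups, and the 10 and 30 μg/kg libraries overlapped. The log2 change of Rn7sk was -1.28 (SE 0.15), -0.64 (SE 0.15) and -0.58 (SE 0.15) at 3, 10 and 30 μg/kg.

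**Figure D1:**
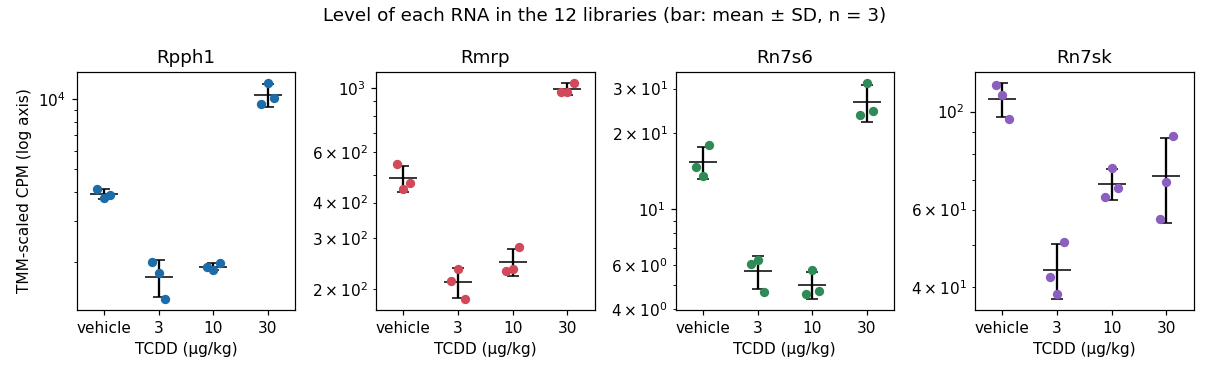
TMM-scaled CPM on a log axis (y) of Rpph1, Rmrp, Rn7s6 and Rn7sk in vehicle and at 3, 10 and 30 μg/kg TCDD (x), 1 point per library, with the mean ± SD of the 3 libraries. With this scaling Rpph1, Rmrp and Rn7s6 were highest at 30 μg/kg (9492 to 11742 CPM for Rpph1), whereas Rn7sk was highest in vehicle (96.2 to 114.8 CPM). With TMM on short coding genes Rn7s6 had a log2 change of -0.22 (SE 0.24) at 30 μg/kg.

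From 10 to 30 μg/kg, the log2 difference was 2.45 (SE 0.15) for Rpph1, 2.00 (SE 0.12) for Rmrp and 2.40 (SE 0.17) for Rn7s6, between 4.00-fold and 5.45-fold. For Rn7sk it was 0.06 (SE 0.15). Among 15823 genes tested, 42 were at least 1.5-fold lower at both 3 and 10 μg/kg and at least 1.5-fold higher at 30 μg/kg, and Rpph1, Rmrp and Rn7s6 were 3 of them. With scaling on short coding genes the count was 2 and held none of the 4 RNAs. The log2 difference from 10 to 30 μg/kg was then 1.67 for Rpph1, 1.23 for Rmrp and 1.62 for Rn7s6, between 2.34-fold and 3.19-fold, and -0.73 for Rn7sk. With TMM on all genes the 42 genes also held 8 snoRNAs, 17 protein-coding genes, the telomerase RNA Terc, the 7SL gene Rn7s2 and Rprl3, which M21 annotates as a ribozyme and whose name denotes likeness to the RNase P RNA. Rprl3 had 8 to 18 counts in vehicle, 1 to 3 at 3 μg/kg, 1 to 7 at 10 μg/kg and 17 to 25 at 30 μg/kg.

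The log2 change at 30 μg/kg depended on the genes used to scale the libraries. Protein-coding genes of 300 to 600 nt, the length class nearest to these RNAs, were themselves higher at 30 μg/kg. The median log2 change of the 86 tested genes of this class was 0.01 at 3 μg/kg, 0.22 at 10 μg/kg and 1.17 at 30 μg/kg, where 46 of them passed the test and were higher. With TMM restricted to this class, the median log2 change of all genes at 30 μg/kg went from -0.02 to -1.02. The log2 change there was then 0.41 (SE 0.28) for Rpph1, 0.02 (SE 0.22) for Rmrp, -0.22 (SE 0.24) for Rn7s6 and -1.59 (SE 0.22) for Rn7sk. The value of Rn7s6 was less than its SE from 0. At 3 and 10 μg/kg all 4 RNAs remained below vehicle with this scaling, from -0.85 for Rn7sk at 10 μg/kg to -1.85 for Rn7s6 at 10 μg/kg. In all 12 libraries the class median relative to the vehicle mean lay between -0.25 and 0.44 up to 10 μg/kg and between 0.97 and 1.17 at 30 μg/kg. Other short RNAs moved in part alongside. The median log2 change was -0.34, -0.34 and 0.44 for 60 snoRNAs and -0.52, -0.50 and 0.57 for 10 scaRNAs (the guide RNAs of Cajal bodies) at 3, 10 and 30 μg/kg, and with scaling on short coding genes the values at 30 μg/kg turned to -0.58 and -0.44. For 32 snRNAs it was -0.11, -0.07 and -0.09. Coding genes of 8000 nt and over, 2439 in all, had a median of -0.08 at 30 μg/kg. The part of gene length in the values at 30 μg/kg was not tested.

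**Figure D2:**
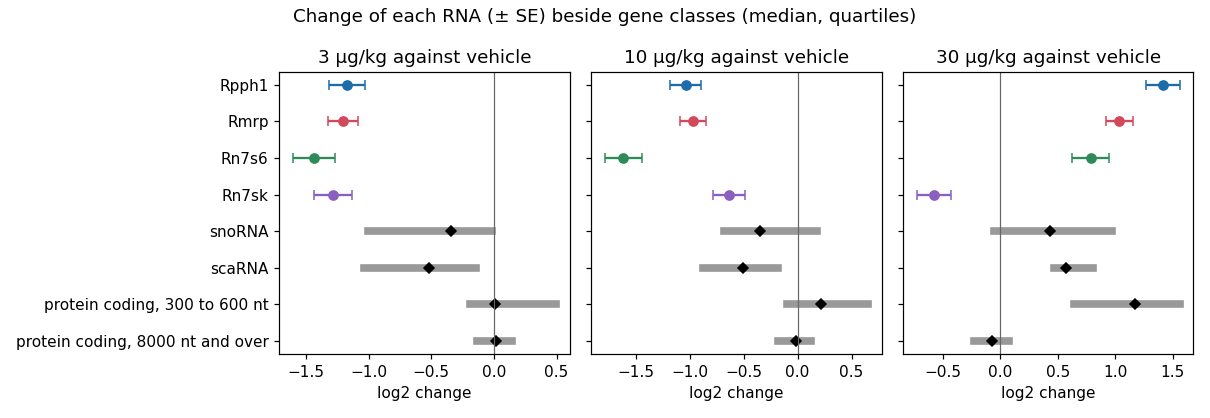
Log2 change against vehicle (x) of each RNA (point, bar ± SE) and of 4 gene classes (diamond, median; grey bar, quartiles) at 3, 10 and 30 μg/kg TCDD (panels). At 30 μg/kg the 86 coding genes of 300 to 600 nt had a median of 1.17, between the values of Rmrp (1.03) and Rpph1 (1.41), and Rn7sk (-0.58) was below 0. With TMM on that class Rn7s6 went from 0.79 to -0.22 (SE 0.24).

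Libraries at 30 μg/kg also differed in where reads fell. Entries outside annotated genes were 25% to 25.4% of the entries in the files at 30 μg/kg and 28.0% to 30.1% elsewhere. Entries matching more than 1 place were 36.2% to 38.8% at 30 μg/kg and 31.4% to 34.6% elsewhere. Ambiguous entries, which overlapped more than 1 gene, were 0.504% to 0.517% at 30 μg/kg, 0.414% to 0.475% at the lower doses and 0.527% to 0.728% in vehicle. Markers of other cells also differed between groups. The summed pancreatic acinar list (Pnlip, Ctrb1, Cpa1, Prss2, Cela3b and Cel) held 5.37 to 6.58 CPM in vehicle, 0 to 0.125 CPM at 3 μg/kg, where 4 of 6 genes were at 0, 1.53 to 2.04 CPM at 10 μg/kg and 0.279 to 1.37 CPM at 30 μg/kg. There 2 of the 6, Cela3b and Prss2, were at 0 in all libraries. The 5 smooth muscle markers summed to 48.1 to 172 CPM in vehicle, 12.0 to 79.4 CPM at 3 μg/kg, at most 30.6 CPM at 10 μg/kg and 30.8 to 106 CPM at 30 μg/kg, so all 10 μg/kg libraries were below vehicle. The 5 genes of a colon list (Car1, Car4, Muc2, Aqp8 and Hoxb13) summed to 3168 to 4125 CPM in vehicle, 3165 to 3556 CPM at 3 μg/kg, 4035 to 4391 CPM at 10 μg/kg and 4317 to 4704 CPM at 30 μg/kg, above vehicle at the highest dose. Of these genes Car1 was at 0 in vehicle, and Car1 and Hoxb13 at 3 and 30 μg/kg. The sums at 3 and 30 μg/kg thus rest on Car4, Muc2 and Aqp8, which are not shown here to be specific to colon. The groups overlapped in the 5 T and B lineage markers (175 to 387 CPM over all libraries) and in the 5 markers of ileal enterocytes (7706 to 11351 CPM), and the 2 erythroid genes were at or near 0. The part of these differences in the levels of the 4 RNAs was not tested.

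Ratios of raw counts within a library need no scaling between libraries. Rpph1 counts were 7.59, 8.39 and 8.29 times those of Rmrp in vehicle, 9.40, 7.66 and 7.54 times at 3 μg/kg, 8.25, 7.91 and 7.07 times at 10 μg/kg and 9.77, 12.1 and 9.63 times at 30 μg/kg. The 30 μg/kg libraries were thus the highest and the other groups overlapped. The range of this ratio was narrow beside the changes of both RNAs. The ratio of Rpph1 to Rn7sk was 34.4 to 40.3 in vehicle, 27.4 to 47.7 at 3 μg/kg and 24.9 to 29.8 at 10 μg/kg. At 30 μg/kg it was 114.6 to 169.4, above every other library. Rmrp to Rn7sk went the same way, from 4.10 to 4.86 in vehicle to between 11.9 and 17.0 at 30 μg/kg. Rpph1 to Rn7s6 was 216.3 to 280.5 in vehicle, 286.4 to 332.8 at 3 μg/kg, 323.6 to 419.1 at 10 μg/kg and 371.2 to 411.4 at 30 μg/kg, so vehicle was the lowest and the 10 and 30 μg/kg libraries overlapped. Across the 12 libraries, Pearson's r of log2 CPM was 0.99 between Rpph1 and Rmrp, 0.96 between Rpph1 and Rn7s6 and 0.96 between Rmrp and Rn7s6. It was 0.40 to 0.48 between Rn7sk and the others. These correlations share the groups and the scaling and are given as descriptions.

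**Figure D3:**
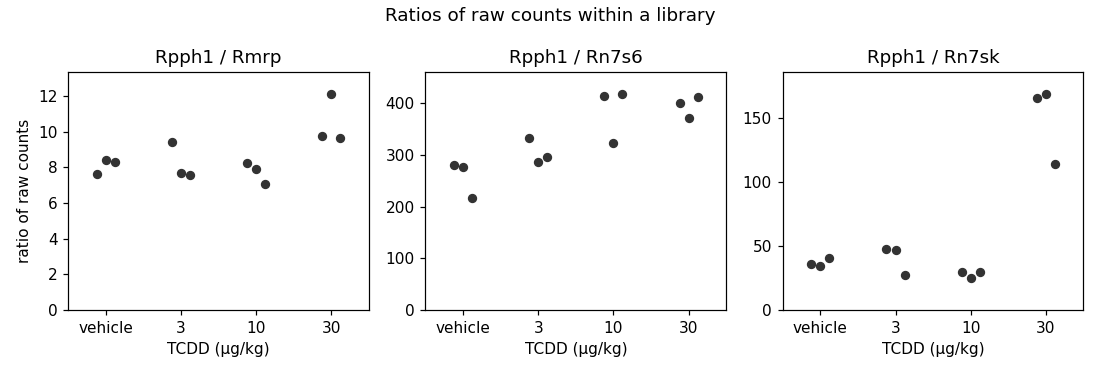
Ratio of raw counts within each library (y, from 0) of Rpph1 to Rmrp, to Rn7s6 and to Rn7sk (panels) in vehicle and at 3, 10 and 30 μg/kg TCDD (x), 1 point per library, n = 3 per group. The ratio to Rmrp stayed between 7.07 and 12.1, whereas the ratio to Rn7sk was 114.6 to 169.4 at 30 μg/kg and at most 47.7 elsewhere.

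Per length, the level in vehicle was 12286 CPM per kb for Rpph1, 1794 for Rmrp, 322.4 for Rn7sk and 52.9 for Rn7s6. This order held in every group and neighbours in it did not overlap. Among 15747 genes with a length, Rpph1 had the 3rd highest level per length in vehicle, rank 5 at 3 and 10 μg/kg and rank 1 at 30 μg/kg. Rmrp was at rank 21, 45, 38 and 11 in vehicle and at 3, 10 and 30 μg/kg. Rn7sk was at rank 109 in vehicle and at 239, 152 and 166 at the doses, and Rn7s6 moved from 707 to 2092, 2352 and 421. For Rn7s6 and Rn7sk these levels leave out the reads that matched more than 1 place. Those of Rpph1 and Rmrp may leave out reads in the exons of other genes that overlap them.

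The 7SK-like genes, unnamed genes that share 50-nt windows with Rn7sk, had another pattern. Of the 6 with a mean of at least 10 counts, 6 were higher at 30 μg/kg, where 3.08% of all genes tested were called higher (at least 1.5-fold with an adjusted p under 0.05 by edgeR's quasi-likelihood test with Benjamini-Hochberg adjustment). Among coding genes of 300 to 600 nt, 46 of 86 were called higher there, with a median log2 change of 1.17. With scaling on short coding genes 2 of the 6 were called, and all 6 were still above 0, the lowest at 0.15 (SE 0.31) for Gm22058. Of all 15823 genes, 76 were called higher with that scaling. The count was 3 of the 6 without vehicle replicate 2, without vehicle replicate 3 or without 30 μg/kg replicate 2. The median log2 change of the 6 was -0.14, 0.35 and 1.37 at 3, 10 and 30 μg/kg. Gm26035, the most abundant, rose from 4.62 ± 0.780 CPM in vehicle to 15.4 ± 2.33 CPM at 30 μg/kg (SD, n = 3; log2 change 1.74, SE 0.22, edgeR adjusted p = 0.000584). Gm26315, which shares 186 windows with Rn7sk, also rose at 10 μg/kg (log2 change 2.98, SE 0.38, edgeR adjusted p = 0.00211), from 7 to 17 counts in vehicle to 58 to 75. Its log2 change at 30 μg/kg was 2.31 (SE 0.38). Gm24146, Gm23624, Gm22058 and Gm23973 had log2 changes from 1.15 to 1.44 at 30 μg/kg. A further gene with 192 shared windows, Gm24447, had 70 counts in all and was not among the 6.

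Summed over Rn7sk and these 6 genes, the level was 108.2 to 130.1 CPM in vehicle, 53.7 to 59.1 CPM at 3 μg/kg, 82.7 to 95.4 CPM at 10 μg/kg and 89.7 to 125.2 CPM at 30 μg/kg. With libraries scaled on all genes, the 30 μg/kg libraries overlapped vehicle in this sum, which they did not for Rn7sk alone. Both lower doses remained below vehicle in it. The sum was not computed with scaling on short coding genes, where Rn7sk alone had a log2 change of -1.59 at 30 μg/kg. How reads of Rn7sk were divided among the genes that share its sequence was not tested.

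**Figure D4:**
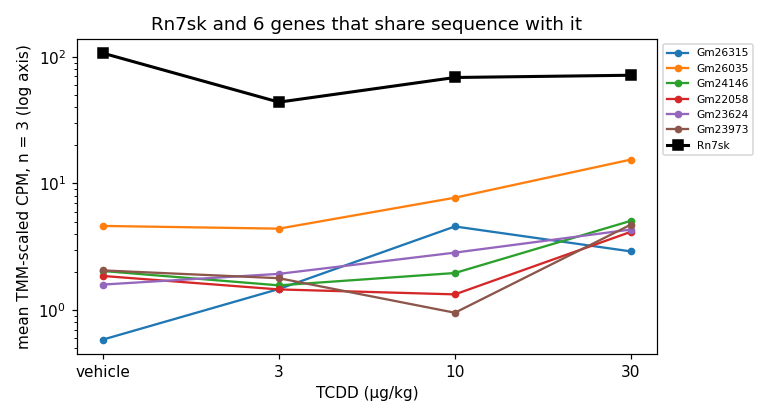
Mean TMM-scaled CPM of 3 libraries on a log axis (y) of Rn7sk (black squares) and 6 genes that share 50-nt windows with it (coloured circles) in vehicle and at 3, 10 and 30 μg/kg TCDD (x). Rn7sk was lower in every treated group, whereas the 6 genes were higher at 30 μg/kg than in vehicle, from 4.62 to 15.4 CPM for Gm26035.

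Of the 4 genes that share windows with Rn7s6 and had a mean of at least 10 counts, 1 was higher at 30 μg/kg, where 3.08% of all genes and 46 of 86 coding genes of 300 to 600 nt were called higher. This was Gm26461, whose log2 change was 1.02 (SE 0.27; adjusted p by edgeR 0.0420). Between 10 and 30 μg/kg 2 of the 4 were called higher, Gm26461 (log2 change 1.88, SE 0.29, edgeR adjusted p = 0.00306) and Rn7s2. There 2.17% of all genes and 31 of 86 coding genes of 300 to 600 nt were called higher. Gm23153 and Gm24514 were at 0.97 and 0.58, and DESeq2 also called the first of them. Rn7s2 held 10 to 26 counts in vehicle, 6 to 11 at 3 μg/kg, 7 to 9 at 10 μg/kg and 22 to 41 at 30 μg/kg. It was higher at 30 than at 10 μg/kg (log2 change 1.77, SE 0.44, edgeR adjusted p = 0.0411). The third named 7SL gene, Rn7s1, had 5 counts over all libraries. Rn7s6 summed with these genes held 19.3 to 24.4 CPM in vehicle, 8.04 to 12.0 CPM at 3 μg/kg, 9.58 to 13.5 CPM at 10 μg/kg and 35.0 to 45.9 CPM at 30 μg/kg. With libraries scaled on all genes, vehicle was thus above both lower doses and below 30 μg/kg in the sum too. The sum was not computed with scaling on short coding genes, where Rn7s6 alone had a log2 change of -0.22 (SE 0.24) at 30 μg/kg.

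Of 61 tested protein genes on lists of partners, RNA polymerase III genes and promoter neighbours, 0 were called at 3 μg/kg, where 0.228% of all genes were called, and 0 at 10 μg/kg, where 0.613% were called. At 30 μg/kg 2 were called, where 3.97% of all genes were, and between 10 and 30 μg/kg 0, where 2.77% were. With scaling on short coding genes the last 2 counts were 50 and 45. Of all 15823 genes, 12412 and 9282 were then called, 12336 and 9209 of them lower. DESeq2 called 0, 0, 2 and 0 of them in the same comparisons. At an unadjusted p under 0.05 by edgeR's test there were 6, 9, 11 and 12 of the 61, where 11.4%, 15.9%, 21.6% and 21% of all genes had such a p. Their median log2 change was 0.08, 0.06 and 0.06 at 3, 10 and 30 μg/kg, beside 0.00, -0.01 and -0.02 over all genes.

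None of 10 RNase P and MRP proteins was called at any dose by edgeR or by DESeq2, with 0, 2 and 3 at an unadjusted p under 0.05 at 3, 10 and 30 μg/kg. Their median log2 change was 0.24, 0.09 and 0.34. Pop1, the largest protein of both enzymes, had the highest value at 30 μg/kg, 0.86 (edgeR adjusted p = 0.108), with 2.89 ± 1.01 CPM in vehicle and 5.27 ± 0.776 CPM at 30 μg/kg. Pop4 had the lowest, -0.14.

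The 7 genes of the 7SK particle and P-TEFb likewise had no call at any dose by either tool, with 1 at an unadjusted p under 0.05 at each dose. Their median log2 change was 0.07, 0.03 and -0.01. Hexim1, the main P-TEFb inhibitor protein of the particle, was at 62.5 ± 2.90 CPM in vehicle and 59.2 ± 7.94 CPM at 30 μg/kg (log2 change -0.08, the lowest of the list). Hexim2, its paralog, had the highest value, 0.95, on 8 to 33 counts in those groups (edgeR adjusted p = 0.218). Larp7, which binds the end of 7SK RNA, was at 0.29, 0.32 and 0.12 at 3, 10 and 30 μg/kg. Mepce, another gene of the list, was at -0.33, -0.35 and -0.05 (edgeR adjusted p = 0.208, 0.0949 and 0.796). At 3 and 10 μg/kg it was the gene with an unadjusted p under 0.05 by edgeR's test.

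Among 8 SRP proteins and receptor subunits, 1 was called, at 30 μg/kg. Srp54c, a gene for the GTPase subunit, rose from 24.2 ± 2.04 to 37.3 ± 2.70 CPM (log2 change 0.62, SE 0.10, edgeR adjusted p = 0.00372). It was at -0.39 (SE 0.22, edgeR adjusted p = 0.105) with scaling on short coding genes. With libraries scaled on all genes, its log2 change was 0.56 both without vehicle replicate 2 and without 30 μg/kg replicate 1, just under the 1.5-fold minimum. Mouse Srp54 genes are near-identical copies, so this count is uncertain. Srp19 had the lowest value of the list, -0.14. Of 13 RNA polymerase III subunits 0 were called, and their log2 changes at 30 μg/kg ran from -0.14 for Polr3b to 0.54 for Polr3d. By DESeq2 the count was also 0, and 1 had an unadjusted p under 0.05 by edgeR's test at 30 μg/kg. Of 19 factors that act with the polymerase, Snapc5, a subunit of the complex that binds the promoters of 7SK, RNase P and MRP genes, was called at 30 μg/kg. It rose from 11.9 ± 1.62 to 19.2 ± 1.01 CPM (log2 change 0.70, SE 0.12, edgeR adjusted p = 0.00391). With scaling on short coding genes it was at -0.31 (SE 0.21, edgeR adjusted p = 0.175). Snapc1, of the same complex, had the lowest value, -0.30. Maf1, the repressor of the polymerase, was at 0.09, -0.09 and -0.15. Ssb (La), which binds the ends of new polymerase III transcripts, was at 0.26 and Trove2 (Ro60), which binds Y RNAs, at -0.45 at 30 μg/kg, with no call.

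**Figure D5:**
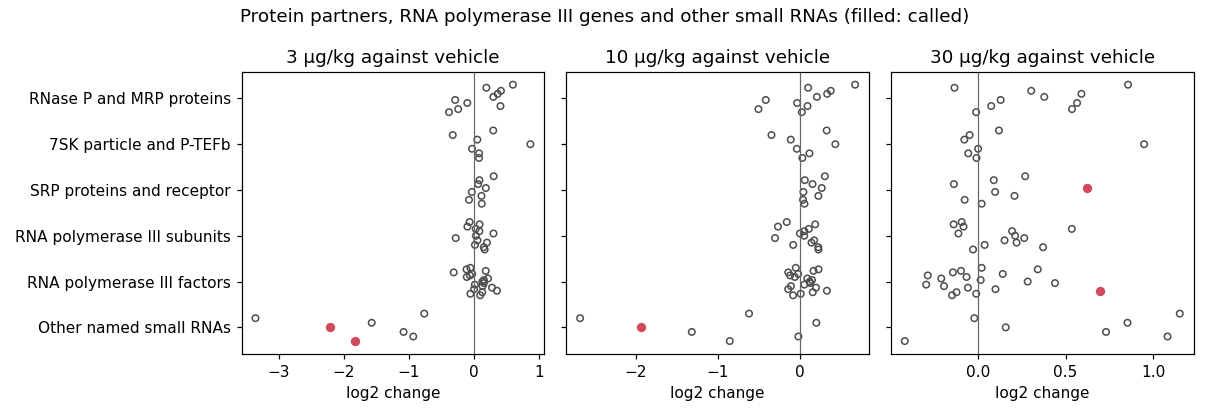
Log2 change against vehicle (x) of each tested gene on 5 lists of protein genes and 1 of small RNAs (rows) at 3, 10 and 30 μg/kg TCDD (panels). Filled points passed the test, which were 0, 0 and 2 of the protein genes (Srp54c and Snapc5 at 30 μg/kg), 2 small RNAs at 3 μg/kg and 1 at 10 μg/kg.

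Some other named small RNAs were lower at the lower doses. Of 7 tested, 2 were called lower at 3 μg/kg, where 0.171% of all genes were called lower. There 2 of 60 snoRNAs, 2 of 10 scaRNAs, 2 of 32 snRNAs and 0 of 86 coding genes of 300 to 600 nt were called lower. With libraries scaled on all genes, the median log2 change of the 7 was -1.57, -0.86 and 0.73 at 3, 10 and 30 μg/kg. Vaultrc5, a vault RNA made by RNA polymerase III, was at 51.1 ± 21.4 CPM in vehicle and 11.0 ± 4.62 CPM at 3 μg/kg (log2 change -2.22, SE 0.29, edgeR adjusted p = 0.00569). At 10 μg/kg it was at 13.3 ± 0.320 CPM (-1.94, SE 0.29, edgeR adjusted p = 0.00719), and at 30 μg/kg at 56.9 ± 7.51 CPM, where it was not called (log2 change 0.16). The call at 10 μg/kg was lost without 10 μg/kg replicate 2 (edgeR adjusted p = 0.0503). Rnu12, the U12 RNA of the minor spliceosome, fell at 3 μg/kg (log2 change -1.84, SE 0.29, edgeR adjusted p = 0.0213). The call of Rnu12 was lost with the library index as a covariate and without vehicle replicate 1 or 3 or 3 μg/kg replicate 2 or 3. With the compared groups fitted alone both calls at 3 μg/kg were lost. DESeq2 called 3 lower at 3 μg/kg, and the third was the Y RNA gene Rny1, with 15 to 40 counts in vehicle, 0 to 6 at 3 μg/kg, 3 in each library at 10 μg/kg and 16 to 26 at 30 μg/kg. Rny3, another Y RNA gene, held 11 to 30, 4 to 9, 12 to 33 and 19 to 57 counts in vehicle and at 3, 10 and 30 μg/kg and was not called. At 30 μg/kg edgeR called 0 (3 at an unadjusted p under 0.05) and DESeq2 called 1, Rnu11. Between 10 and 30 μg/kg 4 were called higher by edgeR, Vaultrc5, Terc, Rn7s2 and Rny1, where 2.17% of all genes were. In that comparison 31 of 86 coding genes of 300 to 600 nt, 21 of 60 snoRNAs and 7 of 10 scaRNAs were also called higher. DESeq2 called 4 of the list, Vaultrc5, Terc, Rn7s2 and Rnu11. Terc had a log2 change of -1.08, -1.32 and 0.73 at 3, 10 and 30 μg/kg, none of them called by edgeR. At 10 μg/kg DESeq2 called 3 of the 7 lower, Terc, Vaultrc5 and Rny1.

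Rpph1 and Rmrp lie head to head with the protein-coding genes Parp2 and Ccdc107, so the RefSeq promoter windows of those genes (250 bases before to 50 after the start, GRCm38.p6) cover the sequence just upstream of Rpph1 and part of that upstream of Rmrp. The 56 bases next to the start of Rmrp are not in the Ccdc107 window and were not searched. Parp2, a DNA damage sensor, was at 11.6 ± 1.90, 13.2 ± 2.57, 13.9 ± 2.24 and 15.1 ± 1.32 CPM in vehicle and at 3, 10 and 30 μg/kg. Ccdc107 was at 14.0 ± 2.88, 10.2 ± 0.875, 10.6 ± 1.02 and 14.5 ± 3.95 CPM. Neither was called at any dose by edgeR or DESeq2. Their log2 changes at 3 μg/kg were 0.19 and -0.46, beside -1.18 for Rpph1 and -1.20 for Rmrp. Unadjusted p-values under 0.05 were those of Ccdc107 at 3 μg/kg and Parp2 at 30 μg/kg. Ick, the coding gene nearest to Rn7sk, 3196 bases away, and Rpia, the nearest to Rn7s6 at 1249091 bases, had log2 changes between -0.05 and 0.19 at all doses and were not called.

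The windows are shown because they hold sequence upstream of Rpph1 and Rmrp, the RNAs with the closest dose pattern. The Parp2 window is chr14:50807666-50807965 and the Ccdc107 window is chr4:43493115-43493414, both on the plus strand, that is, on the strand opposite to Rpph1 and Rmrp. Capitals mark the octamer ATTTGCAT (read on either strand) and TATAAA.

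Parp2 promoter: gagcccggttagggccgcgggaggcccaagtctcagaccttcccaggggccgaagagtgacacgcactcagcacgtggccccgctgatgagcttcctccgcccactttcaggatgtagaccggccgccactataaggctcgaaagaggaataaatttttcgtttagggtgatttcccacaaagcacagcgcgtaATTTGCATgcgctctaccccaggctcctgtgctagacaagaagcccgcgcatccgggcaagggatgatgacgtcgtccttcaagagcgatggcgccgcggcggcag

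Ccdc107 promoter: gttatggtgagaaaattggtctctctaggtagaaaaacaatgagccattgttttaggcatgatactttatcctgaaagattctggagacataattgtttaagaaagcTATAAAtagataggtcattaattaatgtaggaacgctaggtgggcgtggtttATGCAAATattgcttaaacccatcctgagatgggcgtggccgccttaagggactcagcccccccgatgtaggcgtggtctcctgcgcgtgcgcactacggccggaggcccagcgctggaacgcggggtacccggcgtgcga

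The octamer lay 93 bases upstream of the annotated start of Rpph1 and 216 bases upstream of that of Rmrp, and was in 1.74% of 32851 RefSeq promoters of the same length. The exact letters TATAAA were found in the Ccdc107 window, 164 bases upstream of Rmrp, and not in the Parp2 window. They were in 13.6% of promoters. Letters that differ from TATAAA were not searched, nor were the 56 bases next to the start of Rmrp. The core GCGTG, searched on both strands, had 5 matches in the Ccdc107 window and 1 in the Parp2 window, which lay within the Rpph1 sequence itself. It was in 32.4% of promoters. The longer form TNGCGTG, which contains the core, had 0 matches in both windows and was in 5.07% of promoters. Within the RNAs, GCGTG occurred 1 time in Rpph1 and 3 times in Rmrp, and not in Rn7s6 or Rn7sk. These are matches of letters and not sites.

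The tested genes whose log2 CPM over the 12 libraries was most like the mean standardised value of the 4 RNAs were the scaRNA Gm22767 (r = 0.98), Prrc2a (0.98), the snRNA Gm24407 (0.97), Eif4ebp2 (0.97), the snoRNA Gm25776 (0.96), Prr12 (0.96), the snoRNA Gm22422 (0.96), Vaultrc5 (0.96), Hist2h4 (0.96) and the scaRNA Gm22442 (0.95). Of 15819 genes compared, 45 had an r of at least 0.9. The genes differed in size of change. Gm25776 went from 13.0 CPM in vehicle to 1.09 CPM at 3 μg/kg and 12.9 CPM at 30 μg/kg, whereas Prrc2a, a coding gene of 7631 nt, went from 315.1 to 246.3 and 351.3 CPM. Eif4ebp2, a repressor of cap-dependent translation, went from 111.0 to 78.0 and 120.7 CPM. Hist2h4, a histone H4 gene, went from 15.9 to 7.26 and 28.7 CPM.

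The libraries also carried the known TCDD response and a difference that the groups do not explain. Cyp1a1, the classic target of the aryl hydrocarbon receptor, was at 23.0 ± 4.28, 77.4 ± 60.0, 1075 ± 235.4 and 2982 ± 334.2 CPM in vehicle and at 3, 10 and 30 μg/kg. Its group means rose with dose, while Rpph1, Rmrp and Rn7s6 were lowest at 3 and 10 μg/kg. At 3 μg/kg Cyp1a1 ran from 22.2 to 141 CPM and overlapped vehicle, where it ran from 19.0 to 27.5 CPM. Dbp, a clock output gene, ranged from 1.07 to 120.6 CPM within the vehicle group. With a score of clock genes as a covariate, the log2 changes of the 4 RNAs kept their direction at every dose. The score was unevenly spread over the groups. It was -1.88, 2.28 and 1.91 in vehicle and 1.60, -1.54 and -1.68 at 3 μg/kg. At 10 μg/kg it was 1.86, -2.19 and -2.33, and at 30 μg/kg 1.66, 1.03 and -0.73. The part of clock phase in the levels of the 4 RNAs was not tested.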

How the data were processed

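RNA was measured by RNA-seq in 12 libraries, grouped by the dose in the labels. Libraries were numbered within a group in accession order, and no library was left out. The deposited files hold raw counts of reads per gene for each library, made by the authors. The submitters' processing notes name FastQC 0.11.3, Trimmomatic 0.33, TopHat2 2.1.0, SAMtools 1.2.0, HTSeq 0.6.1, DESeq and the build GRCm38. The annotation release and the strand setting are not given in the sources used here, so reads of a gene and of an overlapping antisense transcript cannot be told apart. Libraries were made from total RNA with the Ovation Mouse RNA-Seq System kit. No step that selects poly(A) tails is described in the labels.

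Symbols, biotypes, lengths and transcript sequences came from GENCODE M21 (the sequence of Rn7s6 is not reported here), which matched 45229 of 46078 gene identifiers. Unmatched genes held 0.749% of gene counts and stayed in library sizes. The entries for reads outside genes, ambiguous or matching more than 1 place (25% to 30.1%, 0.414% to 0.728% and 31.4% to 38.8% of entries) stayed out of library sizes and tests. Genes passing filterByExpr were scaled by TMM and fitted in 1 model of 4 groups with edgeR 4.0.16 (glmQLFit, glmQLFTest) in R 4.3.3, with Benjamini-Hochberg adjustment over all 15823 genes. A gene was called at an adjusted p under 0.05 and at least a 1.5-fold difference. CPM are TMM-scaled except for marker sums. With 3 libraries per group, p-values set each difference against the spread between libraries, estimated over the 4 groups with information shared across genes. The fit was tested on simulated counts.

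The 4 RNAs, the gene lists and the tests were chosen with earlier results of these data known, and the 4 RNAs were given no p. Genes named are these RNAs, their coding neighbours, listed genes called at a dose, the highest and lowest of each list at 30 μg/kg, other 7SL, Y, vault and 7SK-like RNAs with a mean of at least 10 counts, the 10 genes most alike by Pearson's r, Dbp and Cyp1a1. Maf1, Larp7, Mepce, Rnu11, Terc, the Rprl genes, Gm24447 and Rn7s1 were named after their values were seen. Alternatives were other scalings (median of ratios, gene totals, upper quartile, TMM on coding genes of 300 to 600 nt), 2 other filters, DESeq2 1.42.0, the compared groups alone, the library index or a clock score as a covariate, and leaving out each library. The same alternatives for the 7SK-like genes and the other small RNAs, and the scaling on short coding genes for the count of genes with the dose pattern and the differences between 10 and 30 μg/kg, were added after seeing the data.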

Additional observations from a re-analysis of the deposited data

How the results depend on the processing

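At 3 μg/kg the log2 changes of all 4 RNAs moved by less than the spread between replicates under each of 10 other settings. At 10 and 30 μg/kg the scaling on coding genes of 300 to 600 nt was the exception. It gave -1.26, -1.21, -1.85 and -0.85 at 10 μg/kg and 0.41, 0.0224, -0.22 (SE 0.24) and -1.59 at 30 μg/kg for Rpph1, Rmrp, Rn7s6 and Rn7sk. It also gave 40 genes called at 10 μg/kg (97 with TMM on all genes), 12412 at 30 μg/kg (628), 9282 between 10 and 30 μg/kg (439), 50 and 45 listed protein genes in the last 2 comparisons, and 2 of the 6 7SK-like genes. This scaling moved the median log2 change of all genes at 30 μg/kg from -0.02 to -1.02, and the share of higher calls from 77.5% to 0.612%. Srp54c and Snapc5 were at -0.39 (SE 0.22) and -0.31 (SE 0.21) there and were not called.

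Other counts that moved were those of all genes called. At 3 μg/kg (36) there were 71 with no filter, 23 with at least 10 counts in every library, 84 by DESeq2, 6 with the compared groups alone and 18 with the library index as a covariate. At 10 μg/kg (97) there were 215 with no filter, 262 by DESeq2 and 59 with the library index. Of the other small RNAs at 3 μg/kg, 0 were called with the compared groups alone and 1 with the library index. The cause of these differences was not tested.

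Leaving out 1 library gave 19 to 162 genes at 3 μg/kg (162 without 3 μg/kg replicate 1), 45 to 59 at 10 μg/kg, 433 to 655 at 30 μg/kg and 188 to 348 between 10 and 30 μg/kg (188 without 10 μg/kg replicate 2). It gave 1 to 2 listed protein genes at 30 μg/kg, 3 to 6 7SK-like genes and 1 to 2 small RNAs at 3 μg/kg. The log2 change at 30 μg/kg ran from 1.32 to 1.48 for Rpph1, 0.98 to 1.13 for Rmrp, 0.65 to 0.91 for Rn7s6 and -0.76 to -0.44 for Rn7sk. No paired analysis was possible because the labels give no replicate numbers that link libraries across doses.

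Precision rests on 64 to 463 counts per library for Rn7s6 and on at least 558 for the other RNAs. Reads that matched more than 1 place were in no gene count, so the levels of Rn7s6 and Rn7sk were measured on part of each RNA.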
